A study of Mus musculus with 35 samples.

Results

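The genes described here flank the huntingtin locus: *Add1*, *Mfsd10* (listed in the count table under its older name 0610009O03Rik), *Grk4*, *Rgs12*, *Dok7*, *Lrpap1*, *Adra2c*, *Sh3bp2* and *Tnip2*. They are 9 of the 22099 genes listed. They were picked by name from the genes near this locus, with earlier results of these data known. All lie within 1.2 Mb of *Htt* (listed as Hdh) on mouse chromosome 5. In the same window lie 23 other tested entries, counted among the names that could be matched to a position. All 9 passed the filter on low counts, which kept 17639 genes for testing. Striatal RNA was sequenced from 35 female C57BL/6J mice aged 299 to 304 days, with 1 library per mouse. They were wild-type (Htt+/+) or heterozygous for a huntingtin allele with an expanded CAG repeat knocked into the mouse gene (HttQ111/+), and received weekly injections of saline (4 uL per g), a control antisense oligonucleotide (control ASO) or an ASO against *Htt* (Htt ASO), both at 50 mg/kg, from 2 to 10 months of age. The 6 groups held 6 mice each, except for Htt+/+ mice on control ASO, of which there were 5. Every HttQ111/+ mouse carried 1 wild-type and 1 knock-in allele, in a line bred onto C57BL/6J, and the ASOs were given by intraperitoneal injection.

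Knock-in mice are made in embryonic stem cells and then bred onto the strain of interest. With each generation recombination replaces donor DNA, but a segment around the selected allele travels with it, so that genes next to the modified locus can carry donor sequence in mutant mice only. In heterozygotes such a segment lies on 1 of the 2 copies of the chromosome. In this design the expanded repeat and any DNA linked to it were present in the same mice and cannot be told apart. Variants in the linked DNA, and their effect on read alignment, were not tested.

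The genes belong to different pathways. *Add1* encodes alpha-adducin, which caps actin filaments and joins them to spectrin under the plasma membrane. *Adra2c*, the alpha-2C adrenergic receptor, *Grk4*, a kinase that phosphorylates activated G protein-coupled receptors, and *Rgs12*, which speeds the GTPase of G protein alpha subunits, act in receptor signalling. *Dok7* activates the kinase MuSK at the neuromuscular junction. *Lrpap1* is an endoplasmic reticulum chaperone for receptors of the LDL receptor family, and *Mfsd10* encodes a membrane protein of the major facilitator superfamily. *Sh3bp2* is an adaptor of immune receptor signalling, and *Tnip2* binds the ubiquitin-editing protein A20 and dampens NF-kappaB signalling.

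In the GENCODE annotation of GRCm38, a later build than the one the authors used for counting, *Htt* lies on the plus strand at chr5:34761740-34912534. *Tnip2*, *Sh3bp2*, *Add1*, *Mfsd10* and *Grk4* come before it, and *Rgs12*, *Dok7*, *Lrpap1* and *Adra2c* after it. *Grk4* is the nearest gene before *Htt*, on the same strand, with 6434 bp between them. *Rgs12* starts 36.91 kb beyond the end of *Htt*, and *Adra2c*, the farthest member, 365.8 kb beyond it. *Add1* and *Mfsd10* converge with their ends 1333 bp apart, as do *Dok7* and *Lrpap1* with 3661 bp between them. Some exons of *Rgs12* (467 bases) overlap an antisense transcript, Gm43791. Whether the counting used strand is not given in the sources used here, so reads of that stretch cannot be assigned to either gene. *Add1* shares 63 exonic bases with Mir7036b on the same strand.

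*Grk4* starts 231 bp from *Nop14* (listed as Nol14), a nucleolar protein gene on the opposite strand, and 270 bases of their promoter windows are shared. Promoters of the C57BL/6J reference (RefSeq starts, GRCm38.p6; from 250 bases before to 50 after the start, 5′ to 3′ on the plus strand) are printed for this shared start region and for the members that differed most by genotype in each direction. They are not the sequence of the knock-in chromosome. Capitals mark the GC box GGGCGG and the CCAAT box CCAAT on either strand, which do not overlap here.
*Grk4* and *Nop14*, chr5:34660129-34660428: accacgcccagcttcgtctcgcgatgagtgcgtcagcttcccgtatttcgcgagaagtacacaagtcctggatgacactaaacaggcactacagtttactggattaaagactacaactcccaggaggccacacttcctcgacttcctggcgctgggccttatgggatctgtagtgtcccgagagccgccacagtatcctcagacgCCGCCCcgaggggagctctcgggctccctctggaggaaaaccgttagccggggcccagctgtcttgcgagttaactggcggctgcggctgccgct
*Dok7*, chr5:35056516-35056815: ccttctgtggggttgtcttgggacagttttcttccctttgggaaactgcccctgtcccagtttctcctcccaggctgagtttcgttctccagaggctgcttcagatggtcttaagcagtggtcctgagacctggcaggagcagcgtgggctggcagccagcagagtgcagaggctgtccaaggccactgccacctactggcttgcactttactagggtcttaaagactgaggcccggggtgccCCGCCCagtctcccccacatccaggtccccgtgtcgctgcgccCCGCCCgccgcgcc
*Adra2c*, chr5:35278316-35278615: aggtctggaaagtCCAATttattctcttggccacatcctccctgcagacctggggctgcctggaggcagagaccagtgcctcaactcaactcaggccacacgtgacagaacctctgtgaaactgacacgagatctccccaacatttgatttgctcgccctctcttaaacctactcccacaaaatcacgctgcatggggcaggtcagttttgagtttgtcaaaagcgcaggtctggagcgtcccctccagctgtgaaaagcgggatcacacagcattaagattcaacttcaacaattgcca

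The shared *Grk4* and *Nop14* window held 1 GC box and 22 CpG dinucleotides, and *Nop14* starts at its base 20, on the opposite strand. The *Dok7* window held 2 GC boxes and 11 CpG, and a further *Dok7* start, with the window chr5:35056822-35057121, held 4 GC boxes and 33 CpG. The *Adra2c* window held 1 CCAAT box, no GC box and 7 CpG. In the GENCODE annotation *Adra2c* starts at base 35278319, before the RefSeq start used here. Nearly all of this window therefore lies inside the annotated exon, and it is not compared with the other windows. Of all 32851 mouse promoters of this length, 35.7% held a GC box and 37.4% a CCAAT box. A match of letters is a description of the window and not a binding site.

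All counts below are on library sizes scaled by TMM and given as CPM (counts scaled to a common library size), and a gene is called when its adjusted p (limma after voom, Benjamini-Hochberg over all 17639 tested genes) is below 0.05. Library totals ran from 32200158 to 38641924 counts. *Htt* ranged from 60.86 to 93.14 CPM in HttQ111/+ mice and from 66.64 to 104.3 CPM in Htt+/+ mice, and was lower by 0.23 on the log2 scale (SE 0.06, adjusted p = 0.001), or by 0.14 with an index of transcript length, described below, as a covariate. Of 8 markers of medium spiny neurons, the main cell type of the striatum, 7 were lower in HttQ111/+ mice and *Tac1* was higher. Their summed level was 5310 to 6660 CPM (median 5990) in Htt+/+ and 3770 to 4540 CPM (median 4160) in HttQ111/+ mice. In bulk tissue, fewer cells of a type and less RNA per cell cannot be told apart. Of the 4 markers each of other cell types, 0 of the cortical excitatory, 0 of the choroid plexus, 2 of the oligodendrocyte, 2 of the astrocyte, 3 of the microglial and 3 of the endothelial markers were lower, with 0 higher, and neither of 2 blood cell markers was called. In 1 Htt+/+ mouse the choroid plexus sum was 1530 CPM, against a median of 41 CPM.

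Per kb of exon, *Add1* (55.5 ± 3.18 CPM per kb, SD, n = 35) and *Lrpap1* (40.1 ± 1.62) were expressed far above the other members. *Adra2c* followed at 9.6 ± 1.64, *Rgs12* at 4.9 ± 0.418 and *Mfsd10* at 4.04 ± 0.455 CPM per kb. *Dok7* (3.45 ± 0.486) and *Tnip2* (3.05 ± 0.277) were near *Htt* itself (3.34 ± 0.471), and their levels were within 1 SD of it. *Grk4* (2.45 ± 0.301) and *Sh3bp2* (1.43 ± 0.176) were lowest. In counts, *Sh3bp2* rested on 161 to 276 per library and *Add1* on 14789 to 18611. *Adra2c* varied most across the 35 mice (coefficient of variation 17.1%) and *Lrpap1* least (4.03%).

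**Figure D1:**
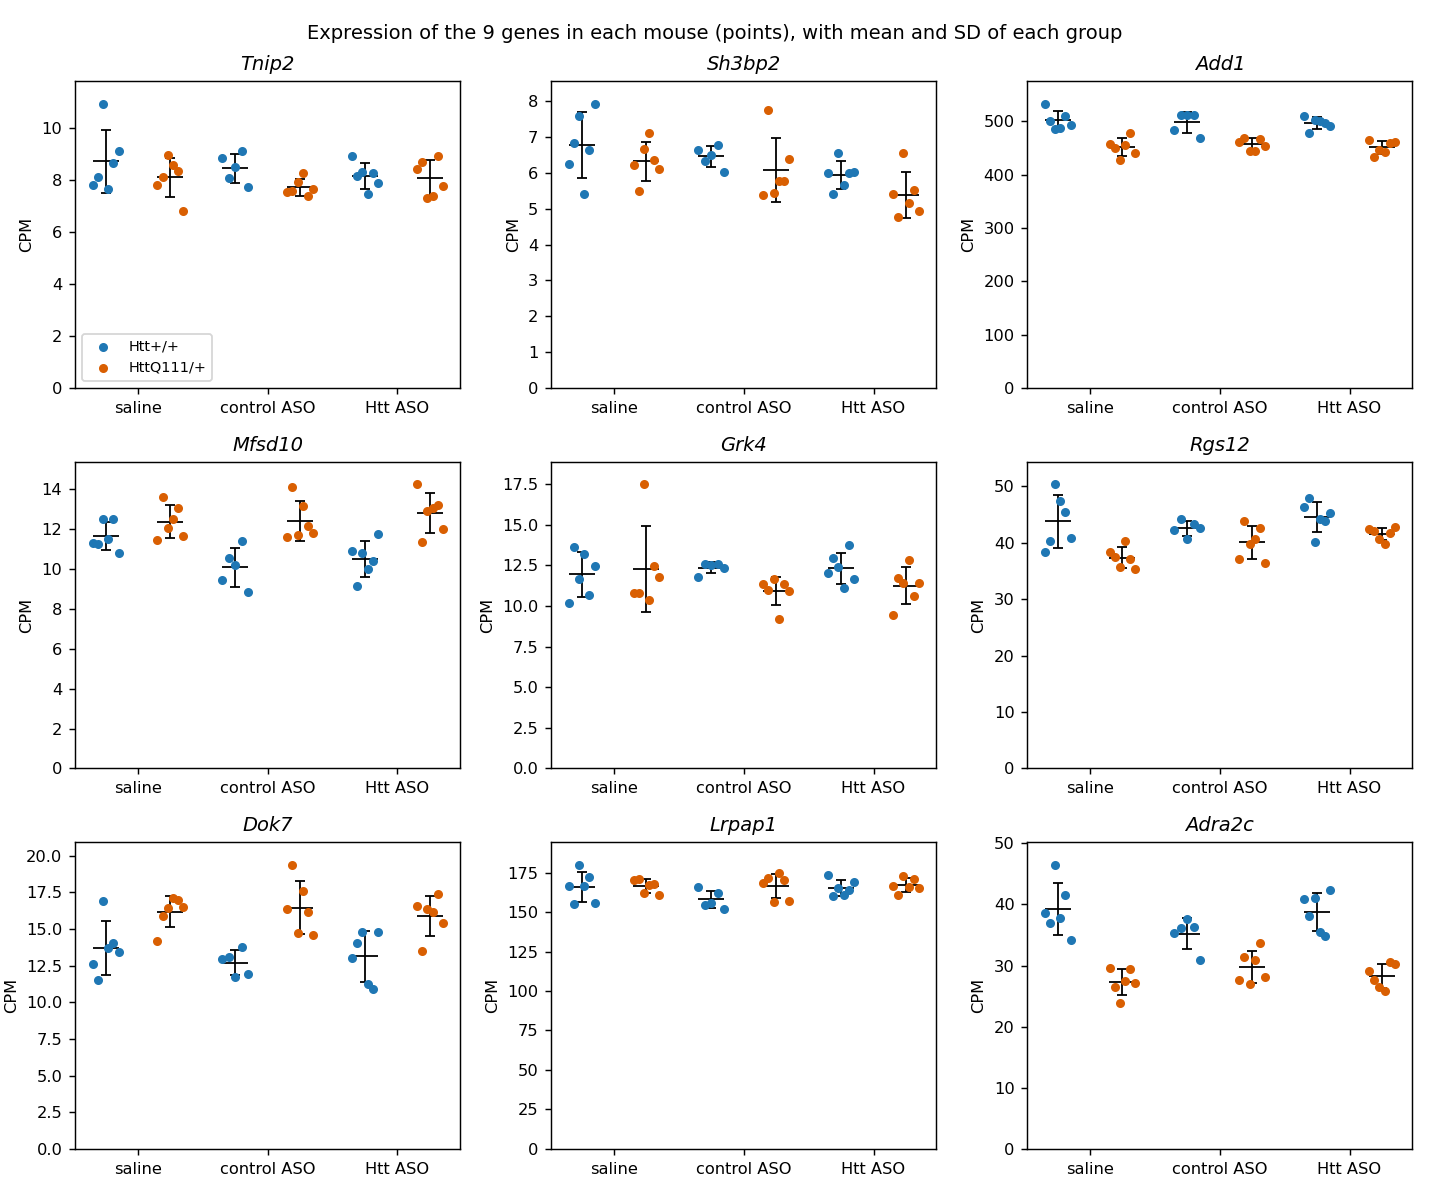
CPM of each of the 9 genes (y axis, from 0) in the 35 mice (points) by treatment (x axis), with Htt+/+ in blue and HttQ111/+ in orange; black marks are the mean and SD of each group. *Adra2c* and *Add1* sat lower and *Dok7* sat higher in the HttQ111/+ mice under each treatment, while *Lrpap1* was between 152.1 and 180 CPM in all mice.

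The main question was whether neighbours of the knock-in allele differed by genotype. Averaged over treatments, 5 of the 9 genes (55.6%) were called: *Adra2c*, *Add1* and *Rgs12* were lower and *Dok7* and *Mfsd10* higher in HttQ111/+ mice. The background was high, since 39.8% of all tested genes were called in this comparison. By direction, 3 of 9 members were lower where 18.0% of all genes were, and 2 of 9 were higher where 21.8% were. The median log2 difference of the members was -0.10, beside 0.00 over all tested genes, and their median absolute difference was 0.14, beside 0.09. With 9 genes these shares are coarse, and nothing particular to the list is read from them.

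*Adra2c* differed most. It ranged from 30.87 to 46.5 CPM (median 37.6) in the 17 Htt+/+ mice and from 23.94 to 33.68 CPM (median 27.86) in the 18 HttQ111/+ mice. The ranges overlapped, but 15 of 18 HttQ111/+ mice were below every Htt+/+ mouse, and all 18 were below the Htt+/+ median. The difference was -0.41 on the log2 scale (SE 0.04, 95% interval -0.49 to -0.32), 24.5% lower, with an adjusted p of 3.73e-10. This receptor is expressed in striatal neurons, and 7 of the 8 medium spiny neuron markers given above were also lower. Their part in the *Adra2c* difference was not tested.

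*Add1* showed a small difference with a tight spread. Htt+/+ mice had 469.3 to 533.1 CPM (median 500.6) and HttQ111/+ mice 427 to 477.8 CPM (median 455.2). Again 16 of 18 HttQ111/+ mice were below every Htt+/+ mouse. The level was 9.14% lower, a log2 difference of -0.14 (SE 0.02, adjusted p = 1.88e-08), beside a coefficient of variation of 3.12% within Htt+/+ and 2.96% within HttQ111/+ mice.

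*Rgs12* fell by nearly the same amount with more overlap. Its range was 38.38 to 50.34 CPM (median 43.77) in Htt+/+ and 35.27 to 43.91 CPM (median 40.01) in HttQ111/+ mice, and 7 of 18 HttQ111/+ mice were below every Htt+/+ mouse. The log2 difference was -0.14 (SE 0.03, adjusted p = 0.000471).

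*Dok7* was the member with the largest rise. It ran from 10.92 to 16.93 CPM (median 13.1) in Htt+/+ and from 13.47 to 19.39 CPM (median 16.35) in HttQ111/+ mice. All 18 HttQ111/+ mice were above the Htt+/+ median and 5 were above every Htt+/+ mouse. The rise was 23.0%, a log2 difference of 0.30 (SE 0.05, adjusted p = 7.52e-06).

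*Mfsd10* rose by 16.9% (log2 difference 0.22, SE 0.04, adjusted p = 1.24e-05). Its levels were 8.825 to 12.53 CPM (median 10.8) in Htt+/+ and 11.37 to 14.25 CPM (median 12.33) in HttQ111/+ mice, so that all HttQ111/+ mice lay above the Htt+/+ median and 8 lay above every Htt+/+ mouse.

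The other 4 members were not called. *Sh3bp2* differed by -0.11 on the log2 scale (95% interval -0.22 to -0.01, adjusted p = 0.0791), *Grk4* by -0.10 (-0.21 to 0.01, adjusted p = 0.16) and *Tnip2* by -0.08 (-0.17 to 0.00, adjusted p = 0.124). *Lrpap1* differed by 0.03 (-0.01 to 0.07, adjusted p = 0.199) with TMM scaling and averaged over treatments. In single treatments it ran from 0.01 on saline to 0.07 on control ASO (95% interval 0.00 to 0.14, adjusted p = 0.141). The *Grk4* value rested partly on 1 mouse: HttQ111/+ saline replicate 3 had 17.5 CPM where the rest of its group had 10.4 to 12.5. Without this mouse *Grk4* was called lower (log2 difference -0.13, adjusted p = 0.0119). Across 9 alternative ways of processing all or most mice, the *Grk4* difference ran from -0.11 to -0.00 and was not called. *Sh3bp2* was called lower when any of 3 single mice was left out (HttQ111/+ control ASO replicate 2, HttQ111/+ Htt ASO replicate 3 or Htt+/+ saline replicate 4), with adjusted p of 0.0231 to 0.0324.

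The ranges of the 18 HttQ111/+ and the 17 Htt+/+ mice did not overlap for 2.21% of all tested genes and for 0 of the 9 members. Within single treatments, with 5 or 6 mice per genotype, *Add1* and *Adra2c* did not overlap between genotypes on saline and on Htt ASO. *Mfsd10*, *Dok7* and *Grk4*, the last not called there (adjusted p = 0.219), did not overlap on control ASO. The 2.21% is for all mice. The share of all genes not overlapping in these smaller groups was not computed, so nothing is read from these separations.

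Direction changed back and forth along the chromosome. From *Tnip2* to *Adra2c*, the called genes ran *Add1* (lower), *Mfsd10* (higher), *Nop14* (higher by 0.12 on the log2 scale, adjusted p = 6.14e-05), *Htt* (lower), *Rgs12* (lower), *Dok7* (higher) and *Adra2c* (lower). The convergent pair *Add1* and *Mfsd10* moved in opposite directions. Of the pair that shares the start region printed above, *Nop14* rose from 18.6 ± 0.953 to 20.2 ± 0.655 CPM (SD, n = 17 and 18), whereas *Grk4* was not called. *Msantd1* (listed as A930005I04Rik), which overlaps the end of *Htt*, had a log2 difference of -0.01 (adjusted p = 0.943).

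**Figure D2:**
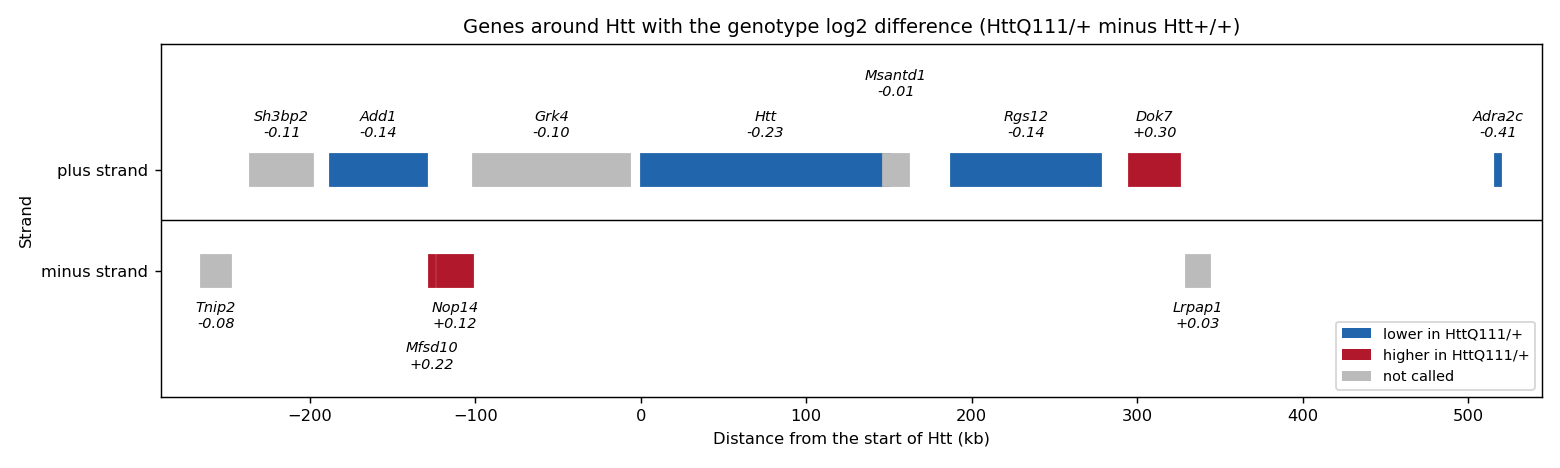
Map of the genes around *Htt* by distance from its start (x axis, kb) and strand (y axis), to scale, with the genotype log2 difference (HttQ111/+ minus Htt+/+) under each name; blue genes were called lower, red genes higher and grey genes were not called. Called genes in both directions lie on both sides of *Htt*, and *Add1* (-0.14) lies next to *Mfsd10* (0.22).

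The genotype difference was then taken within each treatment. On saline, 4 of the 9 members were called, where 17.4% of all tested genes were: *Adra2c*, *Add1*, *Rgs12* and *Dok7*. On control ASO 4 were called (18.5% of all genes) and on Htt ASO 4 (21.2%), in both cases *Add1*, *Adra2c*, *Dok7* and *Mfsd10*. These 3 comparisons use separate mice but share 1 estimate of the spread.

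*Add1* was the most even, with log2 differences of -0.15 in saline mice, -0.12 in control ASO mice and -0.14 in Htt ASO mice. *Adra2c* differed by -0.52, -0.24 and -0.45 in that order, and its Htt+/+ mean was 39.26 ± 4.26 CPM (SD, n = 6) on saline, 35.22 ± 2.57 (n = 5) with control ASO and 38.8 ± 3.12 (n = 6) on Htt ASO. *Dok7* was higher by 0.25, 0.36 and 0.28. *Mfsd10* was higher by 0.30 on control ASO and 0.29 on Htt ASO, and its value on saline was 0.09 (adjusted p = 0.408). *Rgs12* was lower by 0.22 on saline, with values of -0.09 (adjusted p = 0.267) on control ASO and -0.10 (adjusted p = 0.179) on Htt ASO.

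The *Dok7* call on saline was close to the threshold (adjusted p = 0.0339). It was lost in 8 of 12 fits that left out 1 saline mouse, with adjusted p of 0.0519 to 0.11, namely without Htt+/+ replicates 1, 2, 4 or 6 or HttQ111/+ replicates 3, 4, 5 or 6. On Htt ASO the *Dok7* call (adjusted p = 0.0131) was lost without Htt+/+ replicate 4 or 5 (adjusted p = 0.0533 and 0.0594).

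**Figure D3:**
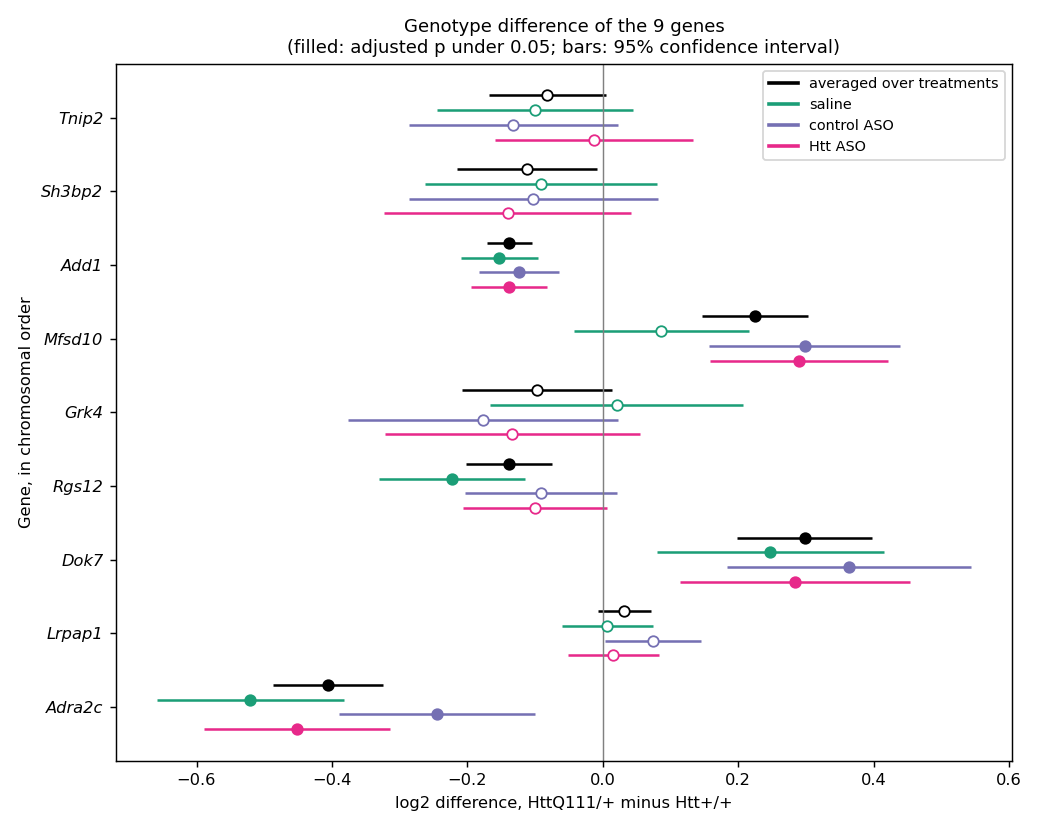
Genotype log2 difference (x axis, HttQ111/+ minus Htt+/+) of the 9 genes in chromosomal order (y axis), averaged over treatments (black) and in the saline, control ASO and Htt ASO mice (colours), with 95% confidence intervals; filled points were called. *Add1*, *Adra2c* and *Dok7* were called in all 4 comparisons, with *Adra2c* running from -0.52 on saline to -0.24 on control ASO.

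Whether the genotype difference itself changed with treatment was tested as an interaction. Of the 9 members 0 were called, as were 0% of all tested genes, although 948 genes and 2 members had an unadjusted p below 0.05. These members were *Adra2c* and *Mfsd10*, each with an adjusted p of 0.878. The *Adra2c* difference was less negative on control ASO than on saline by 0.28 (SE 0.10, adjusted p = 0.735), and that of *Mfsd10* was larger by 0.21 (SE 0.09, adjusted p = 0.735). A difference between treatments was therefore not established for either gene by limma after voom.

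No member was called by treatment. The paper describes the ASOs as restricted to the periphery, and reports no effect of Htt ASO on HTT protein in the striatum. Htt ASO against control ASO called 0 of 9 members and 0.935% of all genes, Htt ASO against saline 0 of 9 and 1.47%, and control ASO against saline 0 of 9 and 0%, with 1357 genes at an unadjusted p below 0.05. The numbers of members at an unadjusted p below 0.05 were 1, 2 and 1, beside 1140, 1652 and 1357 of all tested genes. They were *Sh3bp2* in the first comparison, *Sh3bp2* and *Rgs12* in the second and *Mfsd10* in the third. The log2 difference was 0.09 for *Rgs12* (adjusted p = 0.379) and -0.11 for *Mfsd10* (adjusted p = 0.613). These comparisons share mice, since each group enters 2 of them.

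*Sh3bp2* came nearest. Its mean in Htt+/+ mice was 6.772 ± 0.91 CPM in saline mice, 6.456 ± 0.29 in control ASO mice and 5.939 ± 0.388 in Htt ASO mice, and in HttQ111/+ mice 6.325 ± 0.542, 6.081 ± 0.888 and 5.387 ± 0.639. Averaged over genotypes the log2 difference of Htt ASO from saline was -0.21 (SE 0.06, adjusted p = 0.0971) and from control ASO -0.14 (SE 0.06, adjusted p = 0.671). The first was called when either HttQ111/+ Htt ASO replicate 3 (adjusted p = 0.033) or Htt+/+ saline replicate 4 (adjusted p = 0.0216) was left out.

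The width of the treatment intervals differed between the other members. *Add1* differed by -0.01 between Htt ASO and control ASO, with a 95% interval of -0.05 to 0.03 on the log2 scale, and *Adra2c* by 0.03 (-0.07 to 0.13). Wider intervals were found for *Grk4* (0.02, -0.12 to 0.15), *Dok7* (-0.00, -0.13 to 0.12) and *Tnip2* (0.00, -0.10 to 0.11). *Htt* itself differed by -0.08 (-0.22 to 0.06, adjusted p = 0.967) in this tissue. Between Htt ASO and control ASO, the intervals of *Add1*, *Adra2c*, *Dok7* and *Mfsd10* (-0.05 to 0.15) do not reach the size of their genotype differences. Those of *Grk4* and *Tnip2* do. For *Rgs12* the interval of Htt ASO against saline was 0.02 to 0.17, which passes the size of its genotype difference (-0.14).

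**Figure D4:**
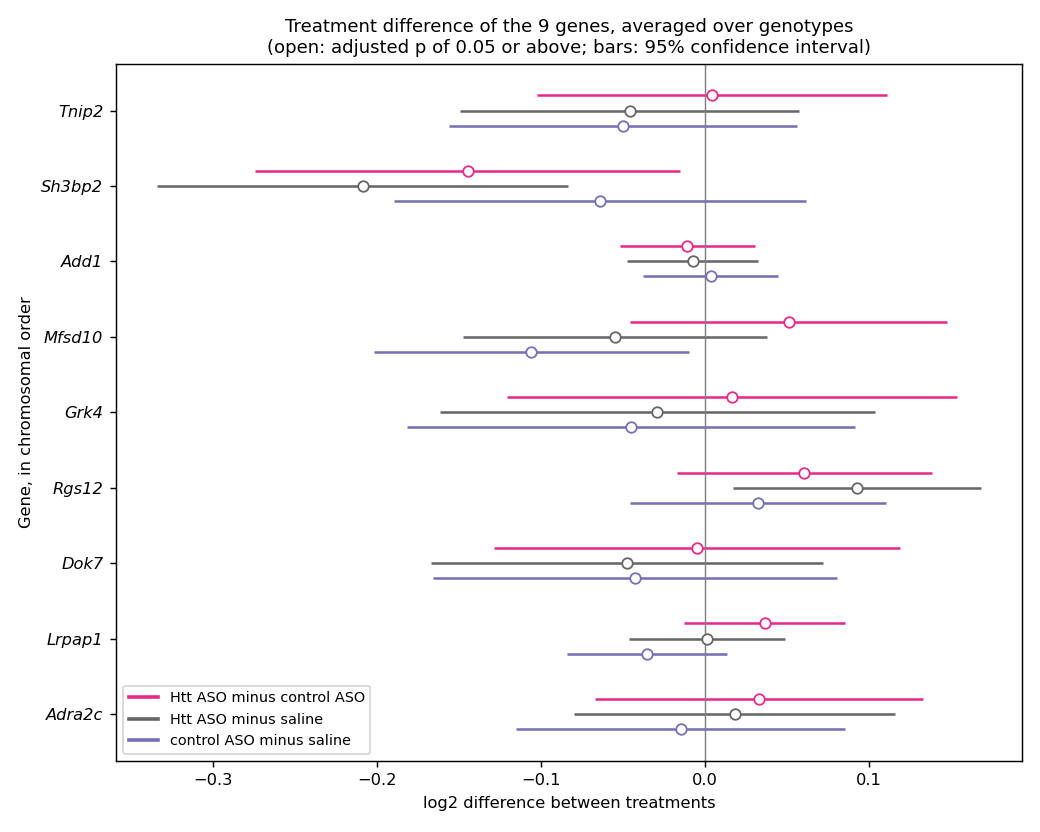
Log2 difference between treatments (x axis), averaged over genotypes, for the 9 genes in chromosomal order (y axis), with 95% confidence intervals; all points are open because 0 were called. *Sh3bp2* lies farthest from 0, at -0.21 for Htt ASO against saline.

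To see whether the members differed from genes farther along the chromosome, tested genes placed on chromosome 5 were grouped by distance from *Htt*. Of the 22099 listed names, 5513 could not be matched to a position and are in no window. Within 1.2 Mb, 19 of 32 entries were called by genotype (59.4%), 9 higher and 10 lower. Entries were counted by listed name, so that *Nsd2* was counted under both Whsc1 and mKIAA1090, each called lower. For the 23 entries within 1.2 Mb that are not members the count was 14 (60.9%). At 1.2 to 5 Mb it was 40 of 83 (48.2%), at 5 to 20 Mb 45 of 109 (41.3%), beyond 20 Mb 272 of 672 (40.5%), and on the other autosomes 5487 of 12823 (42.8%). The median absolute log2 difference was 0.11 within 1.2 Mb and between 0.08 and 0.09 in the other windows. All 32 near entries had a mean of at least 1 CPM. Among all tested genes at that level 44.1% were called. Neighbouring genes are not independent samples, and the shares are given without a test.

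Among the near genes that are not members, *Zfyve28*, which encodes an endosomal FYVE-domain protein, was the clearest. It fell from 90.2 ± 6.18 CPM in Htt+/+ to 70.1 ± 4.06 CPM in HttQ111/+ mice, a log2 difference of -0.36 (adjusted p = 5.04e-12), and the genotypes did not overlap. *Acox3*, a peroxisomal acyl-CoA oxidase, rose by 0.22 (adjusted p = 1.65e-07), and *Htra3*, a secreted serine protease, by 0.23. *Slbp*, *Nelfa* (listed as Whsc2), *Letm1* and *Fam53a* (listed as 2410018C17Rik) also rose, and *Sh3tc1*, *Sorcs2*, *Nat8l* and *Nsd2* fell. *Nsd2* is listed under 2 names, Whsc1 and mKIAA1090, whose reads the counting may have split.

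**Figure D5:**
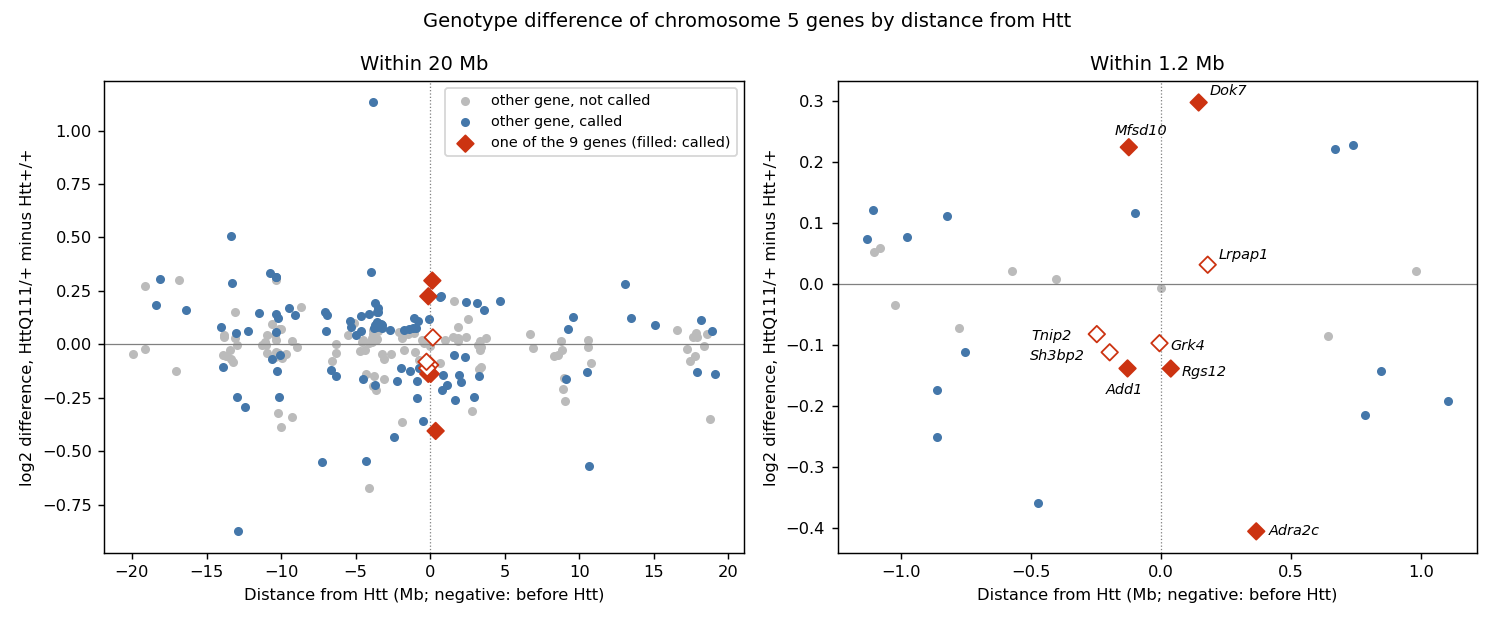
Genotype log2 difference (y axis, HttQ111/+ minus Htt+/+) of chromosome 5 genes by distance from *Htt* (x axis, Mb, negative before *Htt*), within 20 Mb (left) and 1.2 Mb (right); diamonds are the 9 genes (filled where called) and circles other genes (blue where called). Called genes lie on both sides of 0 near *Htt* and farther away, and the point above 1 on the left is *Abhd1*, 3.81 Mb before *Htt*.

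Among the called genes at 1.2 to 20 Mb with a mean of at least 1 CPM, the 5 with the largest absolute differences were chosen by that difference and are given as a description. *Abhd1*, a gene of the alpha/beta hydrolase family 3.81 Mb before *Htt*, had a mean of 2.72 ± 0.3 CPM in Htt+/+ and 6.05 ± 0.983 CPM in HttQ111/+ mice, a log2 difference of 1.13. In 17 of 18 HttQ111/+ mice it was at 5.1 to 7.05 CPM, above every Htt+/+ mouse (2.25 to 3.32 CPM), and in HttQ111/+ saline replicate 5 it was at 2.81 CPM. *Fam184b* (listed as 9630031F12Rik) and *Otof* were lower by 0.57 and 0.54, and *Fgl2* and *Dpysl5* were higher by 0.51 and 0.34. In absolute size all 5 exceeded every member, except that *Adra2c* differed more than *Dpysl5*.

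Relatives and partners of the members that lie elsewhere in the genome were compared as lists. Of the other 2 alpha-2 adrenergic receptors, *Adra2b* was lower (log2 difference -0.32, adjusted p = 0.00158) and *Adra2a* was not called. Both were low in striatum, at 3.28 and 1.87 CPM in Htt+/+ mice against 37.91 CPM for *Adra2c*. Of the other 2 adducins, *Add2* was lower (-0.18, adjusted p = 0.0211) and *Add3* was not called. The closest relatives of *Rgs12*, *Rgs10* and *Rgs14*, were both lower, and *Rgs14* fell from 90.1 ± 5.79 to 49 ± 4.74 CPM (-0.88, adjusted p = 7.03e-19) with no overlap between genotypes. Of 4 other receptor kinases, *Grk2* (listed as Adrbk1, 0.12) and *Grk6* (0.09) were higher, *Grk5* (-0.12) was lower and *Grk3* (listed as Adrbk2) was not called.

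The *Dok7* list joined pathway genes (*Musk*, *Agrn* and *Rapsn*) with relatives (*Dok4*, *Dok5* and *Dok6*), and 1 of 6 genes was called. This was *Dok4*, a related docking protein, which was lower (-0.38, adjusted p = 7.66e-11) where *Dok7* was higher, and *Musk*, the kinase that *Dok7* activates, was not (8.48 ± 1.23 and 8 ± 0.813 CPM, adjusted p = 0.325). Of 8 receptors that *Lrpap1* can chaperone, 3 were lower (*Sorl1*, -0.24; *Lrp4*, -0.20; *Lrp8*, -0.10) and 0 higher. Among 8 partners of *Sh3bp2*, *Vav3* was higher (0.36, adjusted p = 4.18e-09) and *Plcg1* lower (-0.05). Of 6 tested relatives and partners of *Tnip2*, 1 was called, the relative *Tnip1* (0.10, adjusted p = 0.0334). Of 31 tested neighbours in a wider list around the locus, 7 were higher and 10 lower. The 39.8% of all genes called by genotype stand behind each of these counts.

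The number after L in the library names, whose meaning the labels do not state, was taken as the sequencing lane. The mice were spread over 6 lanes, and 1 of them, lane 7, held 6 HttQ111/+ and 0 Htt+/+ mice. In each of the 5 lanes with both genotypes the 5 called members kept their direction. *Adra2c* differed by -0.51 to -0.32 on the log2 scale across these lanes, *Add1* by -0.18 to -0.08, *Rgs12* by -0.25 to -0.11, *Mfsd10* by 0.12 to 0.27 and *Dok7* by 0.08 to 0.44. The 4 members not called took both signs across lanes. Without the mice of lane 7, *Dok7* on saline was not called (log2 difference 0.29, adjusted p = 0.0615), though its difference was no smaller than with all mice (0.25).

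Libraries also differed in the balance of long and short transcripts. An index was formed for each mouse, the mean log2 deviation of the 1285 genes with the longest exon length minus that of the 1285 with the shortest. It was 0.03 ± 0.11 (SD, n = 17) in Htt+/+ and -0.03 ± 0.09 (n = 18) in HttQ111/+ mice, with overlapping ranges. Across the 35 mice, which share the index's own variation in library composition, Pearson's r with the index was -0.69 for *Mfsd10*, -0.63 for *Lrpap1*, -0.62 for *Dok7*, 0.52 for *Grk4* and 0.72 for *Htt*, and between -0.21 and 0.13 for the other members. Within groups, which removes the genotype difference, r was -0.63 for *Mfsd10*, -0.62 for *Dok7*, -0.61 for *Adra2c*, -0.56 for *Lrpap1* and -0.45 for *Sh3bp2*. It was -0.34 for *Rgs12*, -0.26 for *Add1* and -0.24 for *Tnip2*, and positive for *Grk4* (0.49) and *Htt* (0.78). With the index as a covariate, *Dok7* rose by 0.24, *Mfsd10* by 0.18 and *Adra2c* fell by 0.46, all still called, *Sh3bp2* was also called (-0.15, adjusted p = 0.0151), and *Htt* moved to -0.14 (adjusted p = 0.00259), a change of over 1.5 times.

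The genes most like the members with the largest differences were sought over the 35 mice among 15089 genes. The closest to *Adra2c* were *Kcnh3*, a voltage-gated potassium channel gene (r = 0.95), *Lzts3* (listed as Prosapip1, r = 0.95) and *Ap1s1* (r = 0.95), all of which were lower in HttQ111/+ mice, by 0.40, 0.43 and 0.38 on the log2 scale. For *Dok7* they were *Ranbp2* (r = -0.91), *Tmem59l* (r = 0.90) and *Gdap1l1* (r = 0.90). The points share genotype and library composition, so these values are descriptions.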

How the data were processed

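RNAseq of 35 hemistriata (1 left, in an Htt+/+ mouse on Htt ASO, the others right) was analysed from the deposited table. The authors made TruSeq Stranded mRNA libraries, sequenced them as paired 50 bp reads, aligned them with Bowtie 0.12.9 to MGSCv37 (mm9) and quantified genes with RSEM 1.1.18; the deposited values are expected counts, not scaled for depth. Groups came from the sample labels; the treatment labelled ASO1 was taken as Htt ASO, the remaining treatment. The labels give each mouse 1 library, so p-values measure the spread between mice.

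Here, R 4.3.3 with limma 3.58.1 (voom) and edgeR 4.0.16 (TMM, filterByExpr, minimum count 10, minimum total 15) was run on all genes with a mean per group and 29 residual degrees of freedom. The fit was repeated with DESeq2 1.42.0 or edgeR's quasi-likelihood test on rounded counts, with library totals, no filter, a mean of at least 1 CPM, lane as a covariate or only the groups compared, and without lane 7, the left hemistriatum or each mouse in turn. A transcript length index as covariate and the values of the mouse with low *Abhd1* were added after seeing the data. The code was tested on simulated data. All 85 pairs of mice within groups differed by more than sampling noise, with chi-square values 3.57 to 16.5 times their degrees of freedom, and every library was kept.

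Positions came from GENCODE M21 (16586 of 22099 names matched, 2970 of them through RefSeq synonyms) and promoters from RefSeq. An entry ADD1 in the table is a synonym of another gene and was not used. The members and gene lists were chosen with earlier results of these data known. Named genes were the 9 members, *Htt*, called genes within 1.2 Mb (1 of them is not reported here), the 5 largest absolute differences among called genes 1.2 to 20 Mb away with a mean of at least 1 CPM, at most 2 called genes per list, and the 3 genes best correlated with each of the 2 members that differed most; further list genes and *Msantd1* were named after their values were seen.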

Additional observations from a re-analysis of the deposited data

Results flagged for a closer look

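Among the 54 sets of values formed by 9 genes in 6 groups, 3 held a mouse set apart by a gap that was large beside the group's range. Chance gives about 1 in 20 (2.7 sets). All 3 were *Grk4*. In Htt+/+ mice on control ASO, replicate 1 had 11.8 CPM and the others 12.4 to 12.6 CPM. This gap was small, and the value lay inside the range of all Htt+/+ mice (10.16 to 13.78 CPM). In HttQ111/+ mice on saline, replicate 3 had 17.5 CPM and the others 10.4 to 12.5 CPM. In HttQ111/+ mice on control ASO, replicate 4 had 9.2 CPM and the others 10.9 to 11.7 CPM. The reason was not tested.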

How the results depend on the processing

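The 5 members called by genotype averaged over treatments kept their direction and their call under all 9 alternatives and all 35 fits without 1 mouse; the count was 5 to 6. The counts were 3 to 4 in saline mice, 4 to 5 in control ASO mice and 3 to 4 in Htt ASO mice. Between Htt ASO and saline the count ran from 0 to 1 when single mice were left out, the 1 being *Sh3bp2*; the other treatment comparisons and the interaction stayed at 0. With library totals in place of TMM, which moved the median of all genes by 0.0389 on the log2 scale, *Lrpap1* was called (0.07, adjusted p = 0.0025). With lane as a covariate, *Dok7* on Htt ASO was not (adjusted p = 0.0657). *Grk4* ranged from -0.11 to -0.00 across the alternatives. The causes were not tested. Counts were lowest for *Sh3bp2*, at 161 to 276 per library. No paired analysis was possible because replicate numbers were given in accession order and mark no shared litter or batch.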

Other observations

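*Abhd1* separated the genotypes except in 1 mouse, chosen after its values were seen. HttQ111/+ saline replicate 5 had 2.81 CPM, inside the Htt+/+ range of 2.25 to 3.32 CPM, and the other 17 HttQ111/+ mice had 5.1 to 7.05 CPM. Its 2 neighbours among the genes that separated the genotypes most clearly showed the same: *Dpysl5*, 3.96 Mb before *Htt*, was at 49.5 CPM in this mouse (Htt+/+ 41.5 to 52.7, other HttQ111/+ 54.9 to 63.4 CPM), and 0610007C21Rik, 3.71 Mb before *Htt*, was at 42.4 CPM (39.5 to 46.5 and 34.8 to 39.8 CPM). Nearer the locus the genes did not all go the same way. *Nrbp1*, 3.51 Mb before *Htt*, was at 63 CPM in this mouse (Htt+/+ 52.4 to 58.8, other HttQ111/+ 58.6 to 65.9 CPM). *Ppp1cb* was at 342 CPM (354 to 404 and 318 to 357 CPM) and *Zfyve28* at 68.1 CPM (79.4 to 102 and 63.4 to 77.5 CPM). Each of these lay outside the Htt+/+ range. *Adra2c* in this mouse was at 29.5 CPM (30.9 to 46.5 and 23.9 to 33.7 CPM), and *Acox3* at 29.7 CPM (22 to 28 and 27.6 to 32.9 CPM). *Add1*, at 478 CPM, was the highest of the HttQ111/+ mice and inside the Htt+/+ range of 469 to 533 CPM. *Ppp2r2c*, 1.96 Mb after *Htt*, was at 555 CPM, inside both ranges (554 to 630 and 510 to 562 CPM). These are among 13 of 107 genes within 5 Mb whose genotype means, without this mouse, lay at least 2.5 SD apart. The genotype of the flanking DNA was not tested.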
